A study of Mus musculus with 6 samples.

Results

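Small leucine-rich proteoglycans are secreted proteins built from leucine-rich repeats, and most of them carry chondroitin, dermatan or keratan sulfate chains. They sit on collagen fibrils, set the width and spacing of the fibrils, and hold growth factors such as TGF-β in the matrix. In skin and in the penis they are made mainly by fibroblasts and related cells beneath the epithelium. Which cells held their transcripts in these samples was not tested. The 10 genes described here, Dcn, Bgn, Lum, Fmod, Ogn, Omd, Prelp, Aspn, Epyc and Podn, were taken by symbol from the 24063 gene symbols of the count tables. For each symbol the transcript row with the most counts on average was used, and all 10 passed the filter on low counts that left 16336 genes for testing.

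RNA from penile tumors of 3 SA mice was compared with RNA from the normal penile epithelium of 3 WT mice. SA mice carried PB-Cre+ with floxed alleles of both genes, Smad4L/L and ApcL/L, and WT mice were wild-type C57BL/6 animals. All mice were 5 months old, and the tumors arose without a carcinogen. The Cre transgene is driven by an androgen-responsive promoter that is active in the penile epithelium, and the deletion was thus aimed at epithelial cells. The strain background of the SA mice is not given in the sources used here, and strain and genotype cannot be told apart.

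The libraries held between 23828283 and 110509147 counts, with SA tumor replicate 3 the deepest, and 3 counts equalled 0.0244 to 0.137 CPM, the counts scaled to equal effective library sizes. This floor covers counting error only. Smad4 was lower in the SA tumors, at 36.1 to 46.1 CPM against 61.2 to 72.5 CPM in WT penises, while Apc stood at 193.6 to 253 CPM against 62.5 to 91.1 CPM. Counts cover whole transcripts, and a floxed allele loses part of a gene, so the Apc level does not check the labels. Axin2, a direct target of β-catenin that Apc restrains, stood at 245.3 to 367.8 CPM and 18.6 to 22.1 CPM, respectively. Both groups held abundant keratin transcripts, and the 7 epithelial markers summed to 14253 to 15804 TPM, a level per transcript length, in SA tumors and 28269 to 29914 TPM in WT penises. The 13 fibroblast markers summed to 701 to 2106 and 1619 to 1927 TPM, respectively, so that fibroblast transcripts were present in every sample. This includes the WT samples, which the paper describes as epithelium.

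The family did not move as a block. By edgeR's quasi-likelihood F-test at an adjusted p-value under 0.01, 6 of the 10 genes fell in SA tumors, against 17.5% of all genes tested, and 1 of the 10 rose, against 20.1% of all genes tested. When the log2 fold change also had to reach 2 in size, 4 fell (Ogn, Epyc, Aspn and Omd), against a background of 3.59%, and 0 rose, against 9.41%. DESeq2 and limma-voom also gave 0 members that rose past both cut-offs, and at an unadjusted p under 0.05 only 1 member, Podn, was higher at any fold. The CPM of the groups did not overlap for 7 of the 10 genes, beside 63.4% of all genes tested, so that this count is near the background. The median log2 fold change of the 10 genes was -1.80, beside 0.03 over all genes tested. In bulk tissue, fewer cells of a type and less RNA per cell cannot be told apart.

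**Figure D1:**
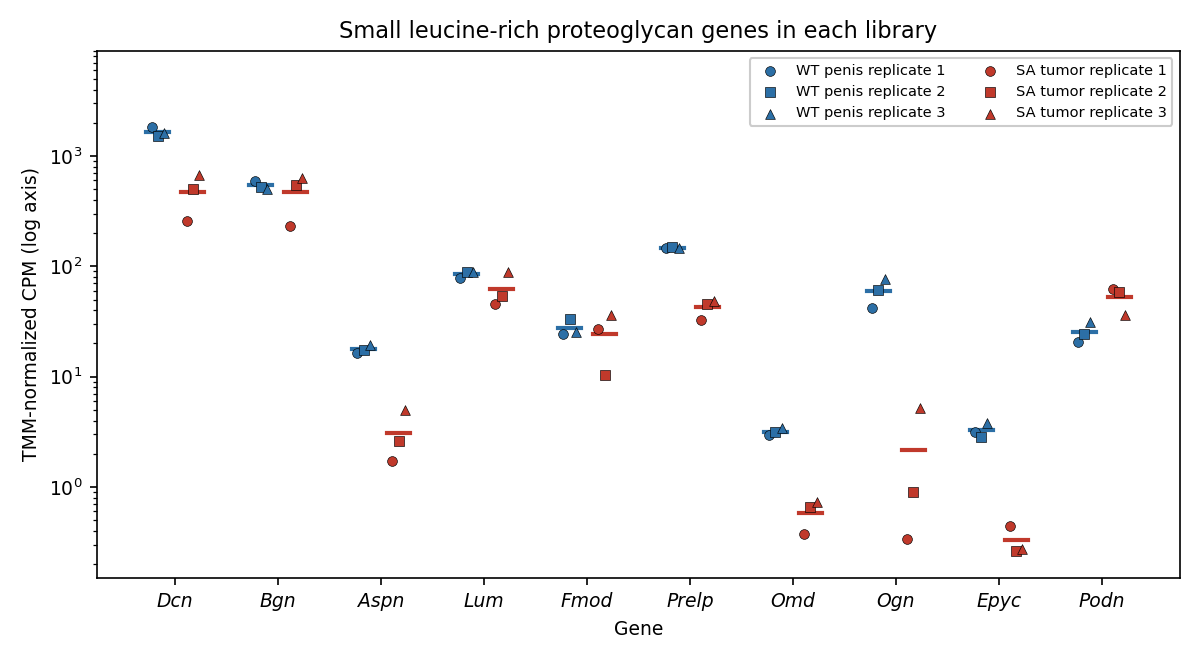
Normalized CPM on a log axis of the 10 genes in each of the 6 libraries, with 1 symbol per library and a bar at the group mean (n = 3 each). The SA and WT points do not overlap for 7 of the 10 genes (63.4% of all genes tested), and they overlap for Bgn, Lum and Fmod.

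Decorin and biglycan are the closest relatives in the family and the most abundant of its transcripts, and their values in the tumors took different courses. Dcn (NM_001190451) encodes decorin, which binds collagen fibrils and sequesters TGF-β. It was measured at 1839, 1529 and 1614 CPM in WT penis replicates 1 to 3, and at 255.6, 501 and 670.1 CPM in SA tumor replicates 1 to 3. Every SA tumor lay below every WT penis. Dcn fell by 1.80 on the log2 scale (standard error, SE, 0.320; edgeR adjusted p = 0.00244), or 3.49-fold, which did not reach the fold-change cut-off. The adjusted p was 0.0127 without SA replicate 2, 0.0155 without WT replicate 1 and 0.0132 without WT replicate 3, while the log2 fold change stayed between -2.13 and -1.51.

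Bgn (NM_007542), on chromosome X from 73483601 to 73495936 in mm10, encodes biglycan, which in soluble form can engage the receptors Tlr2 and Tlr4. Its level was 595.4, 527.7 and 506.8 CPM in the WT penises and 233, 546.1 and 638 CPM in the SA tumors. The groups overlapped, with the first SA tumor below all others and replicate 3 above all others. The log2 fold change of -0.20 (SE 0.336, edgeR adjusted p = 0.644) was within the spread between replicates, and it was 0.12 without the first SA tumor.

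That first SA tumor was also the lowest of the 6 libraries for the main fibril collagens. Col1a1 stood at 329.9 CPM in it, against 926.7 and 1123 CPM in the other SA tumors and 873 to 1047 CPM in the WT penises. Levels of these genes therefore differed among the tumors themselves, and a ratio within a library shows the members relative to each other. Per transcript length, the ratio of Bgn to Dcn TPM was 0.256, 0.272 and 0.248 in the WT penises and 0.720, 0.861 and 0.752 in the SA tumors. The groups were wide apart, and the 3 tumors gave similar ratios although their Dcn levels differed. This ratio was chosen after the values were seen and carries no test. The ratio of Dcn to Col1a1 TPM was 3.84 to 5.25 in WT penises and 1.35 to 1.93 in SA tumors, whereas that of Bgn to Col1a1 was 0.952 to 1.34 and 1.12 to 1.39, respectively.

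The shares of the summed TPM of the 10 genes gave the same picture for each library. Dcn made up 72.5%, 69.3% and 70.6% of the sum in the WT penises and 46.0%, 47.7% and 50.2% in the SA tumors. Bgn made up 18.5%, 18.9% and 17.5% in the WT penises and 33.1%, 41.1% and 37.8% in the SA tumors. Neither gene's groups overlapped, and the mean shares differed by -22.8 percentage points for Dcn and by 19.0 for Bgn. A two-sided exact permutation test gave p = 0.10 for each (adjusted p = 0.125 over the 10 genes), which is the smallest value that 3 against 3 samples allow. Shares are tied to each other, and without Dcn in the sum the difference for Bgn was 9.15 percentage points and its groups overlapped, at 61.3%, 78.5% and 75.9% in the SA tumors and 67.4%, 61.4% and 59.4% in the WT penises. The summed TPM was 1722, 1633 and 1750 in the WT penises and 527, 952 and 1290 in the SA tumors.

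**Figure D2:**
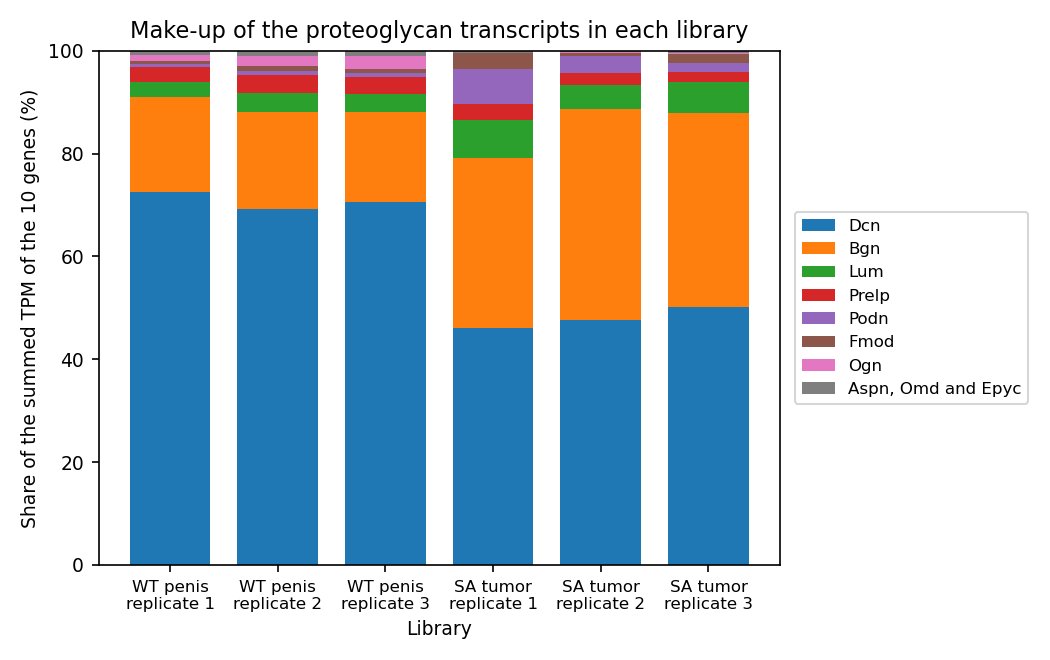
Share of each gene in the summed TPM of the 10 genes, in percent, with 1 bar for each of the 6 libraries. Dcn takes 69.3% to 72.5% of the bar in the WT penises and 46.0% to 50.2% in the SA tumors, and Bgn takes 17.5% to 18.9% and 33.1% to 41.1%.

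Per transcript length, Dcn and Bgn were first and second in both groups, and in every library Dcn exceeded Bgn. In WT penises, Lum (48.4 to 61.6 TPM) and Prelp (52.5 to 58.7 TPM) followed with overlapping ranges, and then Ogn at 20.9 to 43.5 TPM. Fmod, Podn and Aspn came next at 10.9 to 16.2, 8.40 to 14.4 and 8.96 to 12.0 TPM, ranges that overlapped. Epyc and Omd were lowest at 2.30 to 3.20 and 2.18 to 2.82 TPM, and their ranges overlapped as well. In SA tumors Lum followed Bgn at 39.3 to 77.9 TPM, and Podn, at 21.0 to 35.5 TPM, was next by mean level, having been below Ogn and Fmod in WT penises, although its range overlapped those of Prelp (16.2 to 24.6 TPM) and Fmod (6.16 to 23.0 TPM). Ogn was lower in the order than in WT penises, at 0.236 to 3.76 TPM, a range that overlapped that of Aspn above it and those of Omd and Epyc below it.

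Lumican, fibromodulin and Prelp belong to another branch of the family, and the size and spread of their log2 fold changes differed. Lum (NM_008524) encodes lumican, which is needed for regular collagen spacing in cornea and skin. It stood at 78.4, 89.0 and 88.7 CPM in the WT penises and 45.6, 53.8 and 88.6 CPM in the SA tumors. Tumors 1 and 2 lay below the WT range and tumor 3 within it. The log2 fold change was -0.44 (SE 0.230, edgeR adjusted p = 0.141), and without SA tumor replicate 3 it was -0.78 (adjusted p = 0.00117). Fmod (NM_021355) encodes fibromodulin, which shares a collagen-binding site with lumican and regulates fibril growth in tendon. It was measured at 24.4, 33.2 and 25.7 CPM in the WT penises and at 26.8, 10.3 and 36.1 CPM in the SA tumors, so the tumors spread on both sides of the WT range. Its log2 fold change was -0.18 (SE 0.418, adjusted p = 0.748), and 0.18 without the second SA tumor.

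Prelp (NM_054077) encodes a basic protein that binds heparan sulfate and links basement membranes to the collagen beneath them. It was the steadiest member among the WT penises, at 147.8, 148.8 and 146.5 CPM, and stood at 32.7, 45.9 and 48.6 CPM in the SA tumors. All 3 tumors lay far below the WT level. Prelp fell by 1.80 on the log2 scale (SE 0.149, edgeR adjusted p = 2.94e-05), and its adjusted p stayed under 0.01 in all 6 fits that each left out a library. Its fall was as large as that of Dcn with a smaller standard error.

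Most of these genes lie side by side in the genome, in 3 clusters that reflect old duplications. All genes of these clusters had negative log2 fold changes, and they differed in size and in which of them passed the test. On chromosome 13, Ecm2, Aspn, Omd and Ogn lie in a row on the plus strand within 119.7 kb (49504810 to 49624501, mm10). All 4 fell past both cut-offs. Aspn (NM_025711) encodes asporin, a relative of decorin without the usual glycosaminoglycan chain that binds collagen and TGF-β. It went from 16.5, 17.6 and 19.5 CPM in the WT penises to 1.71, 2.62 and 4.94 CPM in the SA tumors, with no overlap and a log2 fold change of -2.47 (SE 0.344, edgeR adjusted p = 0.000514). Omd (NM_012050) encodes osteomodulin, a keratan sulfate proteoglycan best known from bone. Its level was 2.98, 3.14 and 3.42 CPM in the WT penises and 0.372, 0.662 and 0.723 CPM in the SA tumors, the latter from 10, 20 and 89 counts. Its log2 fold change of -2.38 (SE 0.306, adjusted p = 0.000299) held in all 6 fits that left out a library.

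Ogn (NM_008760) encodes osteoglycin, also called mimecan, which takes part in collagen fibril assembly. It showed the largest fall among the 10 genes, from 41.5, 61.4 and 76.5 CPM in the WT penises to 0.334, 0.894 and 5.23 CPM in the SA tumors. All tumors lay below all WT penises, but tumor replicate 3 stood well above the other 2. The log2 fold change was -4.57 (SE 0.853, edgeR adjusted p = 0.00486), a 23.8-fold fall. The log2 fold change was -6.57 without SA tumor replicate 3 (adjusted p = 2.11e-05). The adjusted p rose to 0.0146 without SA replicate 2 and to 0.0112, 0.0253 and 0.0308 without WT replicates 1, 2 and 3, so this call depends on the libraries used, while those of Aspn and Omd held in all 6 fits that left out a library. Ecm2, a matrix protein with leucine-rich repeats that is no member of the 10, went from 36.7 to 44.5 CPM in the WT penises to 1.38 to 3.11 CPM in the SA tumors, a log2 fold change of -4.20 (SE 0.308, adjusted p = 2.00e-05).

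The gene Cenpp runs on the minus strand across the whole chromosome 13 cluster (49464025 to 49652950). Its exons share 7 bases with those of Aspn and 0 with those of the other 3 genes in the GENCODE annotation. Cenpp was measured at 3.50 to 4.68 CPM in the SA tumors and 3.01 to 5.11 CPM in the WT penises (log2 fold change 0.11, SE 0.256, edgeR adjusted p = 0.741).

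Promoter windows of RefSeq (GRCm38.p6, from 250 bases before to 50 bases after a transcription start) were available for 8 of the 10 genes. Those of the 3 members that fell together on chromosome 13, and of the single member that rose, are shown for their base composition, with the more upstream of 2 windows for Podn. Each reads 5′ to 3′ on the strand of its gene, with capitals for TATAAA or its reverse complement.

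Aspn (chr13:49544193-49544492, plus strand): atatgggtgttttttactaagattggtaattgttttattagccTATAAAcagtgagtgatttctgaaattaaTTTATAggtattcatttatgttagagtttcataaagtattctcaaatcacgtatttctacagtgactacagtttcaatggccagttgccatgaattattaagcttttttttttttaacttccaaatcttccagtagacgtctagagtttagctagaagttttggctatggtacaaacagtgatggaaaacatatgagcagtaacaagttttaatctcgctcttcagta
Omd (chr13:49582212-49582511, plus strand): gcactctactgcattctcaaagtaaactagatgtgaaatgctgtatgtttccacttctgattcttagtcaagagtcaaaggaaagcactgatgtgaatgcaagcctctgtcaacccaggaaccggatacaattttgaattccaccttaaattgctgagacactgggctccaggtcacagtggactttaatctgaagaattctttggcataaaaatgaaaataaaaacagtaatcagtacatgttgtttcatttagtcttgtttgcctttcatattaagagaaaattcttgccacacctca
Ogn (chr13:49607765-49608064, plus strand): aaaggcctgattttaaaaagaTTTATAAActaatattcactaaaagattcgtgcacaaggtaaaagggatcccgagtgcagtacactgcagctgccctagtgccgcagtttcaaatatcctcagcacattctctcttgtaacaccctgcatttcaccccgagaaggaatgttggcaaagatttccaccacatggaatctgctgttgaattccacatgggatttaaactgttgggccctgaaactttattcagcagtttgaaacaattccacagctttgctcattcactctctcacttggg
Podn (chr4:108031905-108032204, minus strand): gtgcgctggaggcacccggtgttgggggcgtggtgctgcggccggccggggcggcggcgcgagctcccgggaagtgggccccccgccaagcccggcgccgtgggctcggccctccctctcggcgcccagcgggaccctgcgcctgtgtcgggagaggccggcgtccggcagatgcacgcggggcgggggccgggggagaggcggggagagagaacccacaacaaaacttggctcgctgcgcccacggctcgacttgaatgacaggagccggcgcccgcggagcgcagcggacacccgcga

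The windows of Aspn, Omd and Ogn had a GC content of 31.0%, 37.7% and 42.3%, and held 3, 1 and 4 CpG dinucleotides. The table holds 2 windows for Podn. The one shown had a GC content of 77.0% with 41 CpG dinucleotides, and the other had 63.0% with 7, the latter being the median CpG count of all windows. Over the 32851 windows of the table, the middle 50% lay between 45.7% and 61.7% GC. The windows of Aspn, Omd and Ogn were below that range, and both Podn windows were above it. The windows of Bgn, Fmod and Prelp had 63.7%, 51.0% and 55.3% GC, and the 2 windows of Epyc had 40.3% and 32.3%. Of these, the window of Prelp, which fell, lay within the middle range, and that of Bgn, which was not called, lay above it. Dcn, which fell, had no window. The motifs searched on both strands were the TATA box TATAAA, a core bound by TCF and LEF factors (CTTTGAT), a palindrome bound by Smad proteins (GTCTAGAC) and the CArG box of serum response factor. TATAAA occurred in the windows of Aspn and Ogn and in 13.6% of all windows, and CTTTGAT in both windows of Epyc and in 3.73% of all. GTCTAGAC and the CArG box, which occur in 0.213% and 1.63% of all windows, were in none of the members' windows. These matches describe the letters of the windows only.

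**Figure D3:**
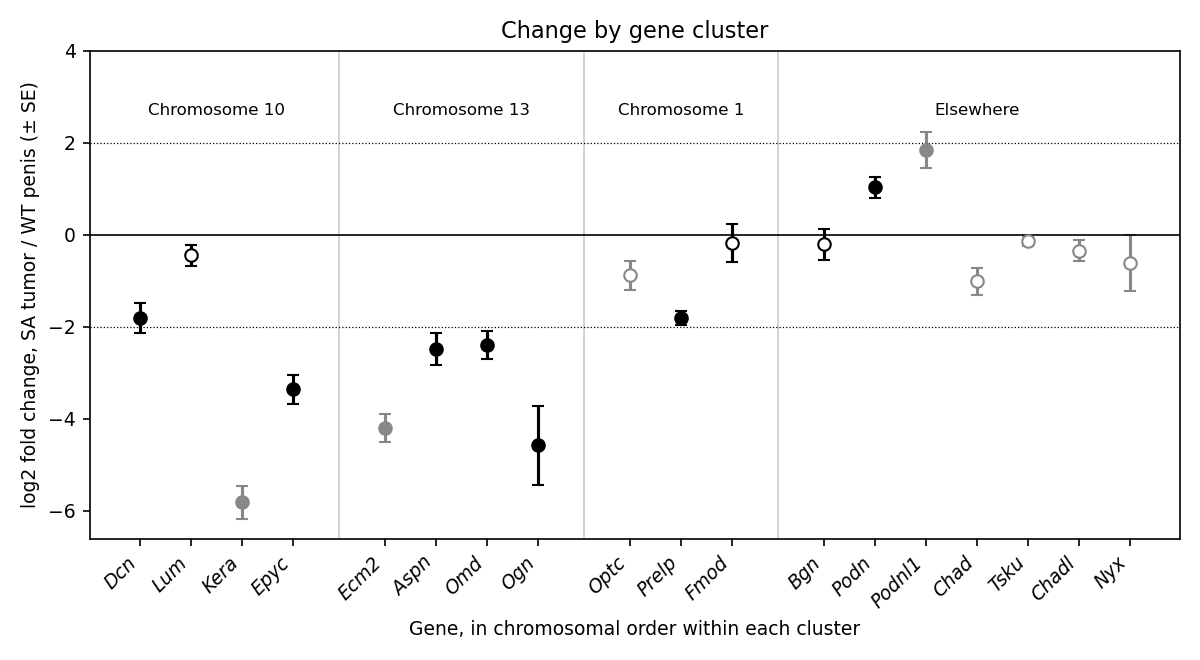
Log2 ratio of SA tumor to WT penis level with its SE for the 10 genes (black) and their relatives (grey), by chromosomal cluster. Filled points had an adjusted p under 0.01 and dotted lines mark a ratio of 2 on this scale in either direction. All 4 genes of the chromosome 13 cluster lie below the lower line, while Dcn at -1.80 and Lum at -0.44 share a cluster, as do Prelp at -1.80 and Fmod at -0.18.

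On chromosome 10, Dcn, Lum, Kera and Epyc lie within 202.4 kb (97479500 to 97681908) with no other protein-coding gene between them. Here the fold changes were unequal. Dcn fell by 1.80 and Epyc by 3.36 on the log2 scale, whereas Lum, which lies between them, had a log2 fold change of -0.44 that missed the threshold. Kera, the gene for the corneal proteoglycan keratocan that is next to Lum, had 135, 290 and 187 counts in the WT penises and 4, 2 and 21 counts in the SA tumors, a log2 fold change of -5.81 (SE 0.359, edgeR adjusted p = 6.54e-06). Epyc (NM_007884) encodes epiphycan, a dermatan sulfate proteoglycan of growth plate cartilage. It was scarce throughout, at 3.16, 2.84 and 3.83 CPM in the WT penises and 0.446, 0.265 and 0.276 CPM in the SA tumors, the latter from 12, 8 and 34 counts. The groups did not overlap, and the fall (SE 0.322, adjusted p = 6.22e-05) was the only one among the members that also passed edgeR's glmTreat test against the fold-change cut-off itself (adjusted p = 0.00493).

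On chromosome 1, Optc, Prelp and Fmod lie within 151 kb (133897193 to 134048280). Prelp was the single gene of this cluster that fell, and the log2 fold change of Optc, the gene for the eye proteoglycan opticin that was named after its values were seen, was -0.88 (SE 0.318, edgeR adjusted p = 0.0454).

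Podn was the member that rose. Podn (NM_172874), on chromosome 4 from 108014793 to 108031954, encodes podocan, a proteoglycan that binds collagen and is known to restrain smooth muscle cell growth. Its level was 20.8, 24.6 and 31.6 CPM in the WT penises and 62.9, 58.2 and 36.4 CPM in the SA tumors, with tumor replicate 3 close to the highest WT penis. The log2 fold change was 1.03 (SE 0.230, edgeR adjusted p = 0.00592), or 2.04-fold. The adjusted p was 0.0129 and 0.0263 without SA replicates 1 and 2, and 0.0288 and 0.0263 without WT replicates 1 and 2, so the call depends on the libraries used. Among the tumors, Podn ran against Dcn, being highest in the tumor in which Dcn was lowest. Podnl1, a close relative of podocan, was named after its values were seen. It stood at 2.27, 2.05 and 3.61 CPM in the SA tumors and at 1.04, 0.768 and 0.410 CPM in the WT penises (log2 fold change 1.85, SE 0.393, adjusted p = 0.00432), and its adjusted p was 0.0197 without WT replicate 2 and 0.0158 without WT replicate 3.

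Of 8 other family genes and cluster neighbours, all of which were tested, 2 fell past both cut-offs (Kera and Ecm2), Podnl1 rose at the adjusted p alone, and 5 were not called. Chad, the gene for chondroadherin of cartilage, and Tsku, for the secreted signaling modulator tsukushi, had log2 fold changes of -1.01 (edgeR adjusted p = 0.0203) and -0.13 (adjusted p = 0.303).

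Most genes for the collagens and other fibril components that these proteoglycans coat were not called. Of 15 such genes, 1 fell past both cut-offs, 1 rose and 13 were not called at the adjusted p alone, and their median log2 fold change was -0.08. The shares over all genes tested were 17.5% lower and 20.1% higher at the adjusted p alone. Without SA replicate 1, 6 of the 15 rose and 2 fell. Col1a1 and Col1a2 had log2 fold changes of -0.25 (edgeR adjusted p = 0.634) and -0.69 (adjusted p = 0.226). Col3a1 stood at 2345 to 2398 CPM in the WT penises and at 315, 1246 and 1655 CPM in the SA tumors, a log2 fold change of -1.15 (adjusted p = 0.125). Fn1, for fibronectin, rose from 136 to 175 CPM in the WT penises to 455, 636 and 1096 CPM in the SA tumors (log2 fold change 2.24, adjusted p = 0.000800). Tnxb, for the fibril-associated protein tenascin-X of skin, went from 301 to 402 CPM in the WT penises to 4.94, 34.0 and 42.9 CPM in the SA tumors (log2 fold change -3.63, adjusted p = 0.00687). That call held without the first SA tumor and was lost when any of the other 5 libraries was left out, with an adjusted p between 0.0123 and 0.0375.

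The sugar chains of the proteoglycans are made in the Golgi by a shared set of enzymes. Of 27 such genes tested in 3 lists, 3 rose and 1 fell past both cut-offs, beside 9.41% and 3.59% of all genes tested, so that these counts are near the background. The 6 genes for the linkage region that joins a chain to its protein had log2 fold changes between -0.58 and 1.24, and 1 rose and 1 fell at the adjusted p alone. B3galt6, a galactosyltransferase, was the one that fell, with a log2 fold change of -0.58 (edgeR adjusted p = 0.00647). That call held only without SA replicate 3 among the 6 fits with a library left out. Xylt1, which starts the chain and was named after its values were seen, had a log2 fold change of 1.24 (adjusted p = 0.00526) and passed in 2 of those 6 fits.

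Among 14 genes of chondroitin and dermatan sulfate synthesis that were tested, the largest changes were in opposite directions and concerned where sulfate is placed. Chst11, the main chondroitin 4-O-sulfotransferase, stood at 14.7, 17.7 and 16.6 CPM in the WT penises and at 191.8, 129 and 146.7 CPM in the SA tumors. Chst3, the chondroitin 6-O-sulfotransferase, stood at 50.3, 60.1 and 46.6 CPM in the WT penises and at 4.98, 5.43 and 6.79 CPM in the SA tumors. Neither gene's groups overlapped. The log2 fold changes were 3.25 for Chst11 (SE 0.168, edgeR adjusted p = 3.19e-06) and -3.17 for Chst3 (SE 0.165, adjusted p = 3.24e-06), and both held in all 6 fits that left out a library. Csgalnact1, which begins a chondroitin chain, and Chsy1, which extends it, were named after their values were seen and rose at the adjusted p alone, by log2 fold changes of 1.91 and 0.74. The other 10 genes, among them Chpf2 and Chst15, were not called. Which cells carry these transcripts was not tested, since such enzymes also act on proteoglycans of epithelial cells.

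Of 7 genes of keratan sulfate synthesis, 2 rose past both cut-offs and 1 fell at the adjusted p alone. Chst2, a sulfotransferase for N-acetylglucosamine, was measured at 6.98 to 7.97 CPM in the WT penises and at 52.2 to 53.7 CPM in the SA tumors (log2 fold change 2.85, SE 0.111, edgeR adjusted p = 1.62e-06). Chst5, of the same enzyme family, had 0, 0 and 2 counts in the WT penises and 13, 12 and 46 in the SA tumors. Its edgeR adjusted p was 0.0137 without SA replicate 2, and 0.0213 and 0.0240 without WT replicates 1 and 2. B4galt1, a galactosyltransferase used by many glycans, fell by 0.69 on the log2 scale (adjusted p = 0.000655).

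**Figure D4:**
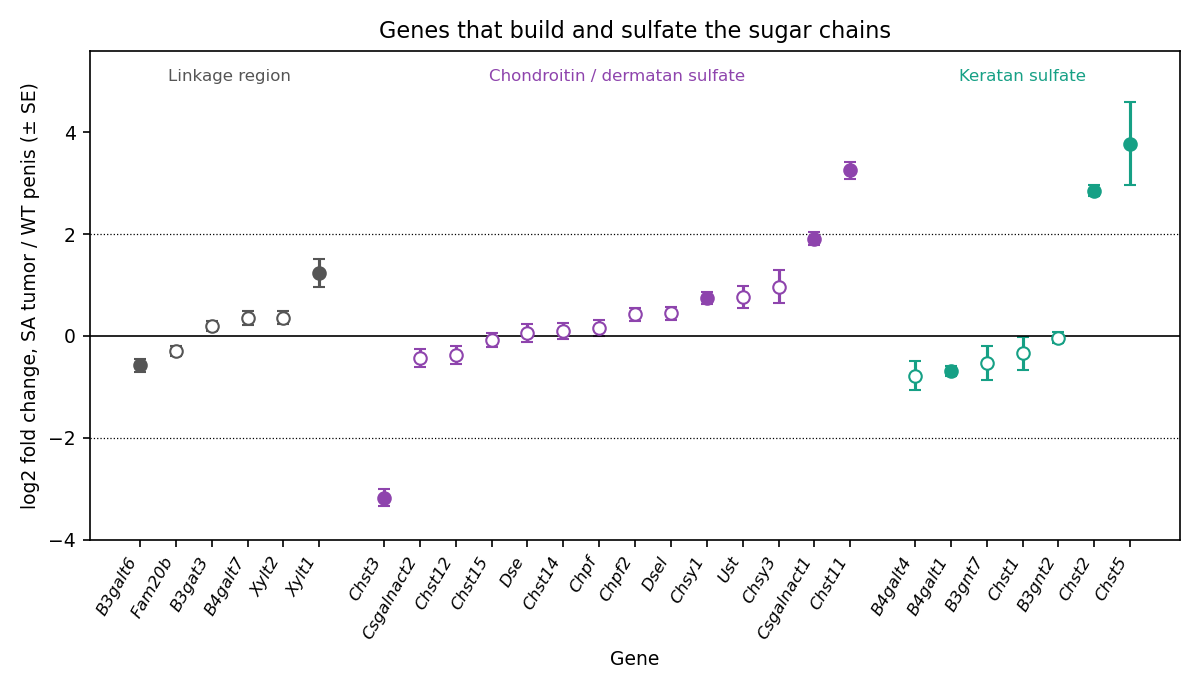
Log2 ratio of SA tumor to WT penis level with its SE for the 27 tested genes that build and sulfate the chains, by list. Filled points had an adjusted p under 0.01 and dotted lines mark a ratio of 2 on this scale in either direction. Chst11 at 3.25 and Chst3 at -3.17 are the extremes among the chondroitin and dermatan sulfate genes.

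Proteinases that trim or cleave the core proteins were mostly higher. Of 12 genes listed for them, a proteinase enhancer included, 7 rose and 1 fell at the adjusted p alone, beside 20.1% and 17.5% of all genes tested. Past both cut-offs, 4 rose (Mmp3, Mmp9, Mmp13 and Adamts4). Bmp1, which removes the propeptides of biglycan and osteoglycin, stood at 82.1 to 109.7 CPM in the WT penises and at 143 to 220.1 CPM in the SA tumors (log2 fold change 0.98, edgeR adjusted p = 0.00176). Its adjusted p was 0.0119 without WT replicate 1 and 0.0107 without WT replicate 2. Adamts4, an aggrecanase, rose from 0.775 to 1.76 CPM in the WT penises to 10.7 to 18.3 CPM in the SA tumors (log2 fold change 3.48, adjusted p = 5.32e-05). Mmp2 had a log2 fold change of 0.31 (adjusted p = 0.361). Adamts5, named after its values were seen, was the one that fell (log2 fold change -1.71, adjusted p = 0.00424), and its adjusted p was between 0.0136 and 0.0227 without SA replicate 2 or any 1 of the WT replicates.

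Of 13 growth factors and receptors that these proteoglycans bind, 5 rose and 0 fell at the adjusted p alone, and 2 fell without SA replicate 3. Among all genes tested, 20.1% rose and 17.5% fell at that threshold. Past both cut-offs were Bmp2, Bmp4 and Wisp1, a matricellular protein that binds decorin and biglycan. Bmp2 stood at 14.3 to 18.1 CPM in the WT penises and at 199.2 to 329 CPM in the SA tumors (log2 fold change 3.99, edgeR adjusted p = 3.18e-06). The receptors Egfr and Lrp1 had log2 fold changes of -0.19 (adjusted p = 0.291) and -0.05 (adjusted p = 0.863). Of 13 other proteoglycan genes, both large and bound to cells, 5 rose and 3 fell. The number that rose was 3 without SA replicate 2 or any 1 of the WT replicates, and the number that fell was 2 in those fits and without SA replicate 3. Gpc1, for a glypican anchored in the cell membrane, rose from 87.4 to 102.7 CPM in the WT penises to 390 to 482 CPM in the SA tumors (log2 fold change 2.24, adjusted p = 3.73e-06), and Sdc4, for a syndecan, fell by 1.35 on the log2 scale (adjusted p = 1.79e-05).

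Markers of several cell types changed as well, some lists upward and others downward, and their part in these results was not tested. The counts below stand beside 20.1% of all genes tested that rose and 17.5% that fell at the adjusted p alone. Of the 13 fibroblast markers, 3 rose and 3 fell at the adjusted p alone, with a median log2 fold change of -0.69. Without SA replicate 1, 5 rose and 6 fell, and in the fits without another library 1 to 3 rose and 0 to 1 fell. Those that fell past both cut-offs, Pi16, Clec3b and Mfap5, mark the adventitial or resting kind of fibroblast, and Thy1 was among those that rose, from 85.7 to 98.5 CPM in the WT penises to 151, 341 and 356 CPM in the SA tumors. The adjusted p of Pi16 passed in 1 of the 6 fits with a library left out, that of Clec3b in 3 and those of Mfap5 and Thy1 in 2 each, with values of 0.0128 to 0.0317 in the fits that missed. Fbln1 and Twist2, named after their values were seen, also rose, by 1.04 and 0.97 on the log2 scale. They passed in 6 and 5 of those fits, respectively. Of 7 genes listed for activated fibroblasts, 3 rose (Inhba, Tnc and Col11a1) and 2 fell (Postn and Lrrc15), so that the list was not of 1 direction.

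All 7 smooth muscle markers fell, 6 of them past both cut-offs, and their summed level was 46.1 to 100.2 TPM in the SA tumors and 615 to 847 TPM in the WT penises. Of 4 Schwann cell markers, 3 fell, with sums of 15.2 to 23.1 and 92.7 to 119.7 TPM, respectively. Of 8 tested markers of cartilage and bone, the tissues from which Epyc, Omd and Chad are best known, 7 rose, and the sum over all 12 listed was 20.1 to 33.8 TPM in the SA tumors and 1.20 to 1.60 TPM in the WT penises. Col2a1, Col9a1, Hapln1, Sp7, Bglap2 and Ibsp had 0 to 14 counts in each WT library and passed the filter through the SA tumors. They could thus hardly be called in any direction but up, and the count of 7 carries little weight. Matn3 and Bglap2 had no count in any WT library, and Matn3, named after its values were seen, had 0 to 3 counts in the SA tumors. Of 4 tendon markers, 1 fell (Thbs4, in 2 of the 6 fits that left out a library), with sums of 10.5 to 18.3 and 41.9 to 61.5 TPM. Of 6 endothelial markers, 2 fell (Pecam1, in 2 of those 6 fits, and Emcn in all), with sums of 72.6 to 118.4 and 116.9 to 134.4 TPM. Of 7 tested leukocyte markers, 2 rose (S100a8 and S100a9), or 6 without SA replicate 1, with sums of 5220 to 9670 and 208 to 366 TPM. Most of these sums came from S100a8 (2539 to 4810 TPM in the SA tumors) and S100a9 (2623 to 4762 TPM). Neither Itgam nor Csf1r was called. Itgam stood at 6.37, 9.62 and 18.8 TPM in the SA tumors and 3.64 to 4.36 TPM in the WT penises. Csf1r stood at 12.4, 30.0 and 41.5 TPM and at 15.3 to 18.0 TPM, respectively. Of 7 epithelial markers, 1 rose (Epcam) and 4 fell. None of the 4 adipocyte markers had enough counts to be tested, and Adipoq and Lep were at 0 in all WT libraries.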

How the data were processed

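Total RNA from fresh tissue was sequenced on an Illumina HiSeq instrument with a stranded paired-end protocol. Alignment by the authors to mm10 used TopHat, with FastQC run on the aligned reads and HTSeq for the counts. Versions and the strand setting of the counting are not given in the sources used here. The deposited tables hold, for each RefSeq transcript, raw counts without normalization, and FPKM and TPM values that the authors derived from them. Reads that fit several transcripts of a gene appear in each row, so the row with the highest mean count represented each gene. For Dcn, Aspn and Podn, which have 2, 2 and 3 rows, the smallest row held at least 99.6% of the largest.

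Counts were analysed across all genes with edgeR 4.0.16 in R 4.3.3, using filterByExpr (10 counts at the median library in at least 3 samples), TMM scaling and its quasi-likelihood F-test in the robust form, adjusting p-values over 16336 genes by the method of Benjamini and Hochberg. A gene is said to have risen or fallen at an adjusted p under 0.01, and to have passed both cut-offs, which are those of the study, when the log2 fold change was also 2 or more in size. Standard errors are the log2 fold change divided by the square root of F. The 3 samples of a group are 3 mice. TPM served for levels between genes, for ratios and shares, and for the sums of the members and marker lists in each library. TPM values were not TMM-scaled, and no test was run on the sums. On simulated counts of 16188 genes with 200 changed by a log2 fold change of 3, the test recovered 194 and called 0 unchanged genes past both cut-offs and 8 at the adjusted p alone.

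The members and the gene lists were chosen with earlier results of these data known. The rule for naming covered the members, the 4 genes of highest mean CPM and those past both cut-offs in each list, and Smad4, Apc, Axin2 and Cenpp. Not every gene that met the rule is named in the text. Genes named outside this rule are marked as such in the text. The fibroblast and fibril lists share collagen genes. Alternatives were DESeq2 1.42.0, limma-voom (limma 3.58.1), glmTreat, other scalings and filters, other choices of transcript row, SA library 3 thinned to lower depth, a term for the replicate number, and fits that omitted 1 library each.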

Additional observations from a re-analysis of the deposited data

How the results depend on the processing

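The number of members that fell past both cut-offs, 4, stayed within 1.5 times that count under every alternative but glmTreat, which left 1 that fell (Epyc) and 0 that rose. At the adjusted p alone, 4 to 7 members fell when each library was left out, against 6 with all. The number that rose at the adjusted p alone, 1 (Podn), was 0 with limma-voom and between 0 and 1 when each library was left out. A replicate number cannot mark an animal shared by both groups, since their genotypes differ. The labels do not say whether it marks a shared day. For samples that share a number, the residuals correlated at -0.13, -0.10 and 0.02, and a fit with the replicate number as a block kept 6 members that fell and left 0 that rose (Podn, adjusted p = 0.0266). Scaling by library totals shifted the median log2 fold change of all genes by 0.29 and raised the share of higher genes among those at the adjusted p alone from 53.4% to 74.4%. Bgn and Fmod then had log2 fold changes of 0.088 and 0.11, and with each library left out they ranged from -0.48 to 0.12 and from -0.58 to 0.18. Without Dcn in the sum, the share of Bgn differed by 9.15 percentage points. Without a filter on low counts the adjusted p of Ogn was 0.0190. Epyc did not pass the filter at a mean of 50 counts. The cause of these changes was not tested, apart from what each alternative itself leaves out. Omd and Epyc rest on 8 to 89 counts in each SA tumor, which limits the precision of their levels.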
